A study of Mus musculus with 9 samples.

Results

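Gene levels in embryonic mouse retinas with a knock-in of another factor's coding sequence at the Neurog2 locus were set against those in retinas that kept an intact Neurog2 allele. The comparison covers 11156 genes of the 12388 gene symbols that the deposited tables hold. They are the genes with a symbol in both tables, at least 1 RPKM in either of the 2 groups (RPKM, reads scaled to transcript length and library size, summed over a gene's transcripts) and matching values for the group that the tables share. The data are total RNA from retinas of CD-1 embryos at E12.5. The heterozygote group, Neurog2GFP/+, has 3 samples with GFP at one Neurog2 allele. The knock-in group has 3 samples with GFP at one Neurog2 allele and the knock-in at the other. The remaining group, Neurog2GFP/GFP, has 3 samples with GFP at both alleles, and is used here to bring the tables to one scale. All 9 samples thus carry at least one GFP allele, no group is wild type, and each sample came from pairs of GFP-positive optic cups, with no cell sort named.

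The heterozygote and the knock-in group were never compared in one test in these files. Each has 1 value per gene, pooled by the authors over its 3 samples, in a table of its own, so no spread between samples can be given for a ratio between them. The ratios below are therefore a description without a p-value, and the tests quoted are the authors' own, of each group against the mutant. Values of the second table were divided by 0.981, the median ratio of its mutant column to that of the first, and all knock-in values below are on this scale. Of 11758 genes with enough signal, 602 were dropped because their scaled mutant values differed by over 10%. The closest gene inside this limit differed by 9.98% and the closest outside it by 10.1%. The median difference over the retained genes was 0.00925%. The depth per sample is unknown. The titles of the heterozygote and mutant samples share one number and those of the knock-in samples another. The labels do not say what it marks, and whatever it marks cannot be told apart from the genotype.

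Neurog2 is a proneural transcription factor with a basic helix-loop-helix (bHLH) domain. Such factors bind E-box sequences as dimers with E proteins, push progenitors to leave the cell cycle and become neurons, and switch on Notch ligands, which hold neighbouring cells back as progenitors. In the early retina Neurog2 acts in progenitors that give rise to the first neurons, above all retinal ganglion cells.

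The promoters of 4 genes show the kind of site at issue beside genes that ended at different levels in the knock-in group. These 4 promoters were picked by hand, not by a rule, so they are examples and give no rate of such sites. Each is the sequence of the 250 bases before the annotated start from RefSeq, build GRCm38.p6, written 5′ to 3′ on the gene's strand. Capitals mark CAGATG on either strand (CATCTG on the other), an E-box form that Neurog proteins bind. Nhlh1 lies at chr1:172057597-172057846 on the minus strand, Nhlh2 at chr3:102009895-102010144 on the plus strand, Gad2 at chr2:22622077-22622326 on the plus strand and Atoh7 at chr10:63099535-63099784 on the plus strand.
Nhlh1: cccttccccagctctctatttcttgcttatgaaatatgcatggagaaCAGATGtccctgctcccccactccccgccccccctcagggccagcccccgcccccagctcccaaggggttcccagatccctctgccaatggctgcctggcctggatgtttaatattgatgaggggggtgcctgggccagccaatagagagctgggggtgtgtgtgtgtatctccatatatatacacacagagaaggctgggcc
Nhlh2: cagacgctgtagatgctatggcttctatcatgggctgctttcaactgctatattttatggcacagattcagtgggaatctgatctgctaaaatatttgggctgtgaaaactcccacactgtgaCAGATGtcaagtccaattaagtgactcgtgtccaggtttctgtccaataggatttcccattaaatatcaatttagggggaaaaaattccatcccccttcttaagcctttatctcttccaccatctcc
Gad2: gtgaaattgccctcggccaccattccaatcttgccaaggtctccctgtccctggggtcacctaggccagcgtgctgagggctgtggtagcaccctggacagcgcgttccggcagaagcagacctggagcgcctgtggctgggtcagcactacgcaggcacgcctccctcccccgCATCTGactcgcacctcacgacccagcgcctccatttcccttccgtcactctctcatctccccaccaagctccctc
Atoh7: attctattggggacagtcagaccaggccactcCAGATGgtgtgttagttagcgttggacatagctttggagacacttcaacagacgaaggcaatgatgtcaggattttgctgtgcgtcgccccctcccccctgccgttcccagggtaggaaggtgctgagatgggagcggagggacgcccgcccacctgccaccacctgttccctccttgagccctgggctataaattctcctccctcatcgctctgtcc
Each of these windows holds 1 such site, 203, 127, 76 and 218 bases before the start, and none holds CAGCTG, another E-box form bound by bHLH factors. In the knock-in group Nhlh1, Nhlh2 and Gad2 were at least 2-fold below the heterozygote, and Atoh7 was 1.08-fold above it. Over all 32851 RefSeq windows of this length, 14.4% hold CAGATG on either strand and 13.0% hold CAGCTG. Over the 10732 windows of the genes compared here the shares were 9.65% and 11.6%. Of the 37 neuronal genes listed below, 22 were matched, and in their 41 windows the shares were 31.7% and 21.95%. Genes at least 2-fold lower in the knock-in group had 12.7% and 13.4% of 157 windows, and genes at least 2-fold higher 9.24% and 8.40% of 119. Genes that the authors' deposited table calls lower in the mutant had 16.96% of 112 windows for either motif. These shares count windows, not genes, so a gene with several annotated starts counts more than once. A match is not a bound site.

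The level of the targeted gene could not be used to check the labels. For Neurog2, at 127633135 to 127635631 of chromosome 3 (mm10) with 2 exons, the levels were 30.2 RPKM in the heterozygote, 36.2 RPKM in the mutant and 114 RPKM in the knock-in group, 3.79-fold above the heterozygote. In the authors' deposited table for the knock-in and the mutant this gene rose, with q = 0.0104. Its signal was thus highest in a group labelled as lacking any intact allele. Coding sequence makes up 35.4% of the annotated Neurog2 transcript, and the other 64.6% is untranslated. Each RPKM value covers both kinds of sequence, so it cannot show whether an allele is intact. Since the gene does not check the labels, the groups are called mutant-labelled and knock-in-labelled below.

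Across all 11126 genes with a ratio, the groups were close. The median log2 ratio of knock-in-labelled to heterozygote was 0.03, from -0.65 at the 5th percentile to 0.59 at the 95th, and 68.8% of genes lay within 1.25-fold. At least 2-fold higher were 165 genes (1.48%) and at least 2-fold lower 216 genes (1.94%). These shares are the background for the gene lists below. Of these genes, 38 and 63 are predicted genes, pseudogenes or small RNAs, and 64 and 110 were below 5 RPKM in both groups. The authors' deposited tables call 27 of the 165 higher in knock-in-labelled than in mutant-labelled retinas, where 1.03% of all genes were. They call 20 of the 216 lower, where 0.634% of all genes were. The knock-in-labelled value that picks these genes also enters that test, so the overlap is partly built in. For 136 and 174 no test in either table was passed. A further 30 genes, mostly small RNAs, were listed at 0 in one group and have no ratio.

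**Figure D1:**
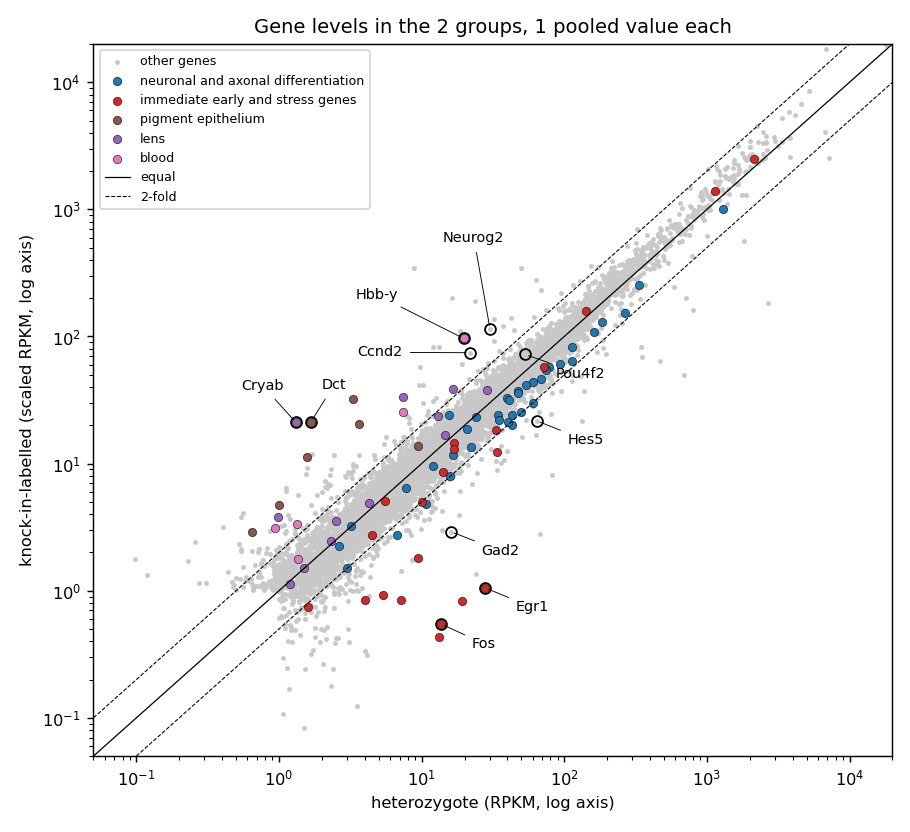
Levels of all genes with a ratio in the heterozygote (horizontal axis) and the knock-in-labelled group (vertical axis), both in RPKM on log axes, 1 pooled value per group. Coloured points are gene lists, rings mark labelled genes, the solid line is equality and the dashed lines are 2-fold. Neuronal genes sit mostly just under the line of equality, immediate early genes such as Fos and Egr1 far below it, and pigment epithelium, lens and blood genes above it; 3 genes lie outside the axes.

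Retina markers were high in both groups. Pax6 was at 327 and 296 RPKM, Six3 at 96.3 and 118 RPKM, and Lhx2 at 84.9 and 99.9 RPKM in heterozygote and knock-in-labelled retinas. Markers of other tissues differed between the groups and are described after the retinal genes. Sex-linked genes were closer between these 2 groups than either was to the mutant-labelled one. Xist had 184 RPKM in heterozygote, 177 RPKM in knock-in-labelled and 505 RPKM in mutant-labelled retinas. The Y-linked gene Kdm5d was at 12.8 and 19.7 RPKM and Eif2s3y at 21.9 and 29.2 RPKM, while both were listed at 0 in mutant-labelled retinas. The authors' tests quoted here each set a group against the mutant-labelled one and so span this difference in sex-linked genes. Its part in those tests was not tested. Uty, at 3.48 and 9.62 RPKM, was the one of 5 sex-linked genes past 2-fold.

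Genes of neurons and axons stayed below the heterozygote level. Of 37 genes on this list, 35 were lower in the knock-in-labelled group, where 45.9% of all genes were. Their median ratio was 0.702, a log2 ratio of -0.51, and 4 were at least 2-fold lower. Summed over the list, the level was 3533 RPKM in heterozygote, 2407 RPKM in mutant-labelled and 2544 RPKM in knock-in-labelled retinas. In whole tissue, fewer neurons and less RNA per neuron cannot be told apart. By the authors' deposited tables, 22 of the 37 fell from heterozygote to mutant-labelled retinas, where 1.09% of genes did. A rise was called for 4 of the 37 from mutant-labelled to knock-in-labelled retinas, where 1.03% of genes did.

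The 4 genes at least 2-fold lower were Mapt, Kif5a, Nefl and Sncg. Mapt, which encodes the microtubule protein tau, was at 6.69 RPKM in heterozygote, 2.76 RPKM in mutant-labelled and 2.75 RPKM in knock-in-labelled retinas. Kif5a, a kinesin motor of axonal transport, was at 10.7, 5.60 and 4.84 RPKM in the same order. Nefl, the light neurofilament chain, was at 42.8, 14.7 and 20.2 RPKM, and Sncg, a synuclein of ganglion cells, at 60.7, 26.8 and 30.2 RPKM. For these 4 genes the test between mutant-labelled and knock-in-labelled retinas was not passed (q = 0.994, 0.783, 0.783 and 0.809 in the authors' deposited table). In Stmn2, Nefm and Ina, as in Nefl and Sncg, the knock-in-labelled value lay between the other two. None of Stmn2, Nefm and Ina passed that test either (q = 0.0506, 0.633 and 0.887 in the authors' deposited table). Stmn2, a microtubule regulator of growing axons, was at 268, 129 and 153 RPKM, Nefm at 114, 50.0 and 64.4 RPKM and Ina, another intermediate filament gene, at 49.5, 23.1 and 25.4 RPKM. Stmn1, the most abundant gene of the list, was lowest in the knock-in-labelled group, at 1287, 1167 and 1011 RPKM.

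A few neuronal genes were at or above the heterozygote level. Rbpms, an RNA-binding protein that marks ganglion cells, was at 15.5 RPKM in heterozygote, 10.3 RPKM in mutant-labelled and 24.2 RPKM in knock-in-labelled retinas. Serpini1, a neuronal serine protease inhibitor, was at 3.22, 1.61 and 3.24 RPKM and Camk2n1, an inhibitor of the kinase CaMKII, at 24.0, 14.0 and 23.3 RPKM. Each of these 3 rose from mutant-labelled to knock-in-labelled retinas, with q = 0.0104 in the authors' deposited table. Rbpms and Serpini1 were the 2 of 37 genes above the heterozygote.

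**Figure D2:**
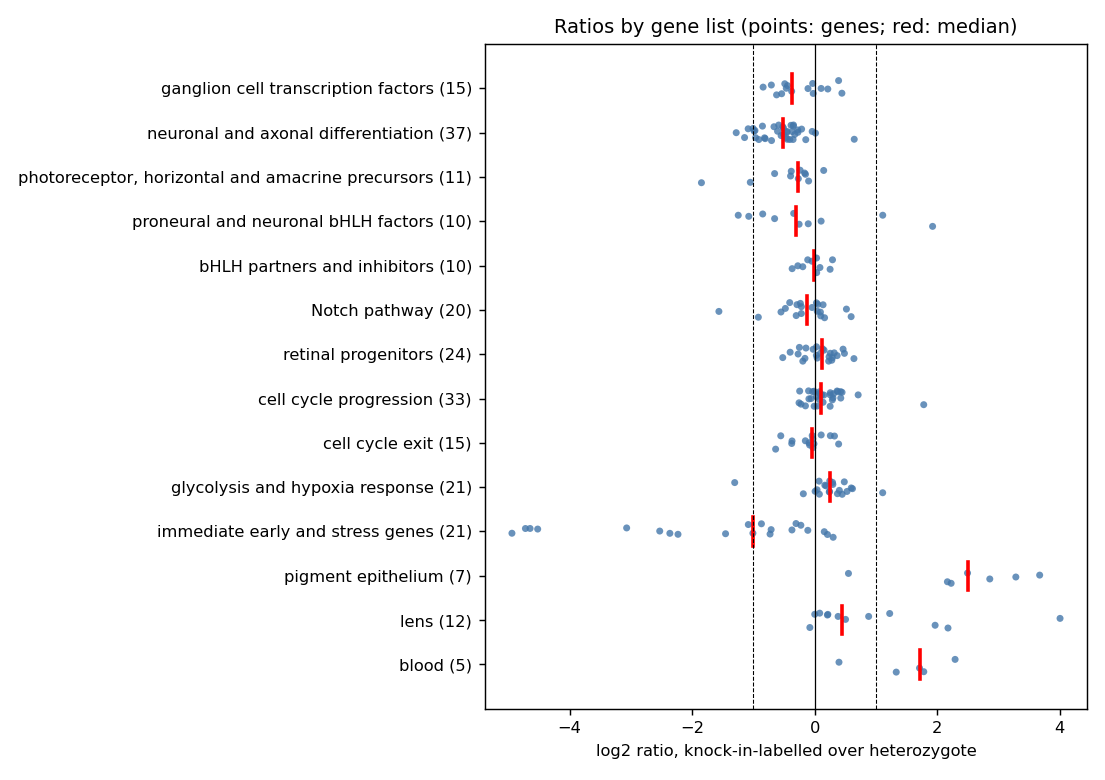
Log2 ratios of knock-in-labelled to heterozygote retinas (horizontal axis) for the genes of 14 lists, with the number of genes in brackets. Points are genes, red bars are medians, the solid line is equality and the dashed lines are 2-fold. The medians were -0.51 for neuronal genes and -0.38 for ganglion cell factors, -1.01 for immediate early and stress genes and 2.49 for pigment epithelium genes.

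Transcription factors of ganglion cells split by gene. Of 15 factors, 11 were lower and 4 higher than in the heterozygote, with a median log2 ratio of -0.38, and none was past 2-fold. Pou4f2 (chromosome 8, 78433010 to 78436645), which starts ganglion cell differentiation, was at 53.1 RPKM in heterozygote, 31.1 RPKM in mutant-labelled and 72.2 RPKM in knock-in-labelled retinas, 1.36-fold above the heterozygote. Its relative Pou4f1 was at 14.4, 5.78 and 8.03 RPKM in the same order, 1.79-fold below the heterozygote. Both fell from heterozygote to mutant-labelled retinas (q = 0.0109 for each). Between mutant-labelled and knock-in-labelled retinas Pou4f2 rose (q = 0.0104) and Pou4f1 did not pass the test (q = 0.339 in the authors' deposited table).

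Atoh7, the bHLH factor that makes progenitors competent to form ganglion cells, was at 195 RPKM in heterozygote, 148 RPKM in mutant-labelled and 210 RPKM in knock-in-labelled retinas. Neither step passed the authors' test (q = 0.527 and q = 0.0843). Isl1, a partner of Pou4f2, was at 69.1, 43.3 and 49.3 RPKM, Ebf3 at 51.3, 25.3 and 31.4 RPKM, Irx2 at 38.5, 15.3 and 27.9 RPKM and Barhl2, a factor of ganglion cell maturation and subtype, at 10.6, 5.07 and 7.28 RPKM. Over the 6 ganglion cell factors with a single transcript in both tables the median log2 ratio was -0.067.

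Among the neuronal bHLH factors, Nhlh1 and Nhlh2, which act in young neurons after the proneural factors, were 2.38-fold and 2.11-fold below the heterozygote. Nhlh1 was at 14.5 RPKM in heterozygote, 5.26 RPKM in mutant-labelled and 6.09 RPKM in knock-in-labelled retinas, and Nhlh2 at 16.7, 6.56 and 7.93 RPKM. Neurod4 was at 18.3, 9.43 and 15.4 RPKM and Neurod1 at 41.9, 29.9 and 33.0 RPKM. Of the 10 bHLH genes 7 were lower than in the heterozygote. The 3 higher ones include the targeted gene Neurog2 and Atoh7, which is also on the ganglion cell list. The bHLH partners and inhibitors were near equality, with 5 of 10 above and a median log2 ratio of -0.01. The E protein genes Tcf3 and Tcf12 were at 43.4 and 51.7 RPKM and at 126 and 97.5 RPKM in heterozygote and knock-in-labelled retinas (Tcf12 was 1.12-fold higher by its most abundant transcript), and the inhibitor Id3 at 145 and 126 RPKM. Insm2, a zinc finger factor of newborn neurons, was back at its heterozygote level, with 16.8, 10.8 and 16.3 RPKM in the 3 groups.

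**Figure D3:**
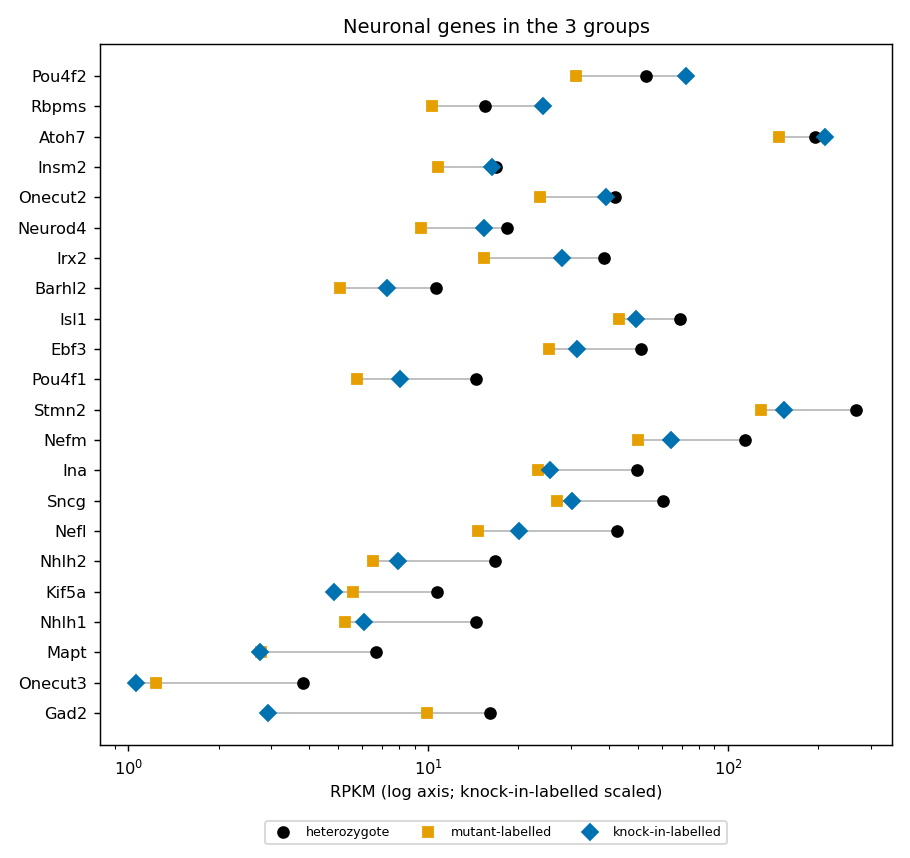
Levels of 22 neuronal genes in heterozygote (circles), mutant-labelled (squares) and knock-in-labelled retinas (diamonds), in RPKM on a log axis, 1 pooled value per group and gene. From top to bottom the knock-in-labelled value moves from above the heterozygote (Pou4f2, 72.2 against 53.1 RPKM) to near or below the mutant-labelled one (Mapt, Onecut3 and Gad2).

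Genes of other early retinal neurons were mostly lower as well. Of 11 factors of photoreceptor, horizontal and amacrine precursors 10 were below the heterozygote, with a median log2 ratio of -0.27 (-1.05 over the 3 genes with a single transcript). Onecut3 was at 3.81 RPKM in heterozygote, 1.24 RPKM in mutant-labelled and 1.06 RPKM in knock-in-labelled retinas, 3.60-fold below the heterozygote. Prdm13, an amacrine cell factor, was at 2.33, 0.712 and 1.12 RPKM. Prdm1, which favours photoreceptor over bipolar fate, was at 23.0, 13.9 and 14.6 RPKM. Onecut2, by contrast, was at 41.9, 23.5 and 39.1 RPKM, and Otx2, a factor of photoreceptor precursors, at 56.9, 43.6 and 51.3 RPKM.

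Gad2 (chromosome 2, 22622205 to 22693874), which encodes an enzyme that makes GABA, was the neuronal gene farthest below its heterozygote level among those on the lists. It was at 16.0 RPKM in heterozygote, 9.91 RPKM in mutant-labelled and 2.92 RPKM in knock-in-labelled retinas, 5.49-fold below the heterozygote. It fell in both of the authors' comparisons (q = 0.0109 and q = 0.0104). The other 3 measured genes of the GABAergic list were also lower in mutant-labelled retinas but did not fall further in knock-in-labelled ones. In heterozygote, mutant-labelled and knock-in-labelled retinas Dlx2, a homeobox factor of GABAergic neurons, was at 18.3, 13.3 and 18.7 RPKM. Dlx1 was at 25.02, 14.8 and 19.98 RPKM, and Sp8 at 4.84, 2.99 and 3.69 RPKM. Of these 3, only Sp8 was called lower in mutant-labelled than in heterozygote retinas (q = 0.0424 in the authors' deposited table).

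In the Notch pathway 11 of 20 genes were below the heterozygote, with a median log2 ratio of -0.13. Hes5, a direct target of Notch that represses neuronal genes, was at 64.1 RPKM in heterozygote, 43.1 RPKM in mutant-labelled and 21.7 RPKM in knock-in-labelled retinas, 2.96-fold below the heterozygote and the one gene past 2-fold. It fell from mutant-labelled to knock-in-labelled retinas (q = 0.0104 in the authors' deposited table). Hes1, the other main Notch target, was at 48.6, 49.8 and 39.4 RPKM. Among the ligands, Dll1 was at 52.4, 39.6 and 35.8 RPKM and Dll4 at 12.1, 8.49 and 8.66 RPKM, both below the heterozygote, while Dll3 was at 6.24, 3.28 and 8.93 RPKM. Jag1 was at 10.2, 8.05 and 5.37 RPKM. Receptor genes were level or higher. Notch1 was at 82.0, 74.7 and 87.5 RPKM, and Notch3 at 5.36, 5.05 and 8.09 RPKM, with a rise from mutant-labelled to knock-in-labelled retinas (q = 0.0104).

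Progenitor and cell cycle genes were close to all genes, whose median log2 ratio was 0.03. Of 24 progenitor genes 16 were above the heterozygote, where 54.1% of all genes were, with a median log2 ratio of 0.11. Between heterozygote and knock-in-labelled retinas Rax had the highest ratio, with 50.6 and 78.8 RPKM, and Sox2 was at 33.9 and 47.5 RPKM. Tbx5, a factor of the dorsal retina, had the lowest, at 12.3 and 8.58 RPKM, 1.44-fold lower by the sum and 2.64-fold by the most abundant transcript. Of 33 genes of cell cycle progression 23 were above the heterozygote, with a median of 0.10. Of 15 genes of cell cycle exit 11 were below it, with a median of -0.04. Btg2, a marker of neuron-producing divisions, was at 63.4, 40.9 and 43.2 RPKM in the 3 groups. No gene of the progenitor list or of the list of cell cycle progression was called in either of the authors' tables.

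Ccnd2, which encodes cyclin D2, stood apart from the other cyclins. It was at 21.7 RPKM in heterozygote, 11.97 RPKM in mutant-labelled and 74.5 RPKM in knock-in-labelled retinas, 3.43-fold above the heterozygote. These are sums over 5 transcripts, none of which passed the authors' test (lowest q = 0.993 and q = 0.536), and the most abundant transcript alone differed 4.94-fold. Ccnd1 was at 388 and 520 RPKM and Ccnd3 at 54.0 and 88.2 RPKM in heterozygote and knock-in-labelled retinas.

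Of 21 glycolysis and hypoxia genes 19 were above the heterozygote, with a median log2 ratio of 0.25. Another 4 genes of the list, dropped because their mutant values differed between the tables, were lower. Pfkp was at 12.4 RPKM in heterozygote and 5.80 RPKM in knock-in-labelled retinas, Ndrg1 at 11.1 and 6.97 RPKM, Vegfa at 29.5 and 25.5 RPKM and Aldoc at 1.56 and 1.13 RPKM. Ldha, which makes lactate dehydrogenase A, was at 325 RPKM in heterozygote, 362 RPKM in mutant-labelled and 702 RPKM in knock-in-labelled retinas, and Pgam1 at 467, 357 and 716 RPKM. Both rose from mutant-labelled to knock-in-labelled retinas (q = 0.0104 for each). Gapdh was level, with 1328 and 1334 RPKM in heterozygote and knock-in-labelled retinas. Eno2, the neuronal enolase, was lower, at 2.59 and 1.05 RPKM. The p53 and apoptosis list had a median of 0.20 over 10 genes, and 7 were above the heterozygote. Trp53inp1 of this list, dropped for its mutant values, was lower, at 9.72 RPKM in heterozygote and 5.99 RPKM in knock-in-labelled retinas. Bbc3 and Sesn2, at 1.28 and 1.19 RPKM in the heterozygote, have no knock-in-labelled value.

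Genes that pattern the retina across its axes had a median log2 ratio of -0.08 over 17 genes, which turned to 0.036 with a minimum of 5 RPKM and to 0.054 by the most abundant transcript. Of these, 8 were above the heterozygote and 9 below. The lowest ratio was that of the dorsal factor Tbx5, at 12.3 RPKM in heterozygote and 8.58 RPKM in knock-in-labelled retinas. Vax2, a homeobox factor of the ventral retina, was at 27.6 RPKM in heterozygote, 42.6 RPKM in mutant-labelled and 51.3 RPKM in knock-in-labelled retinas. Aldh1a3, the ventral enzyme of retinoic acid synthesis, was at 11.9, 25.3 and 31.2 RPKM, 2.61-fold above the heterozygote as a sum over 3 transcripts and 1.43-fold by the most abundant one. Bmpr1b was at 8.62, 11.4 and 15.8 RPKM. The dorsal enzyme gene Aldh1a1 was also higher, at 916, 1072 and 1372 RPKM. None of Tbx5, Vax2, Aldh1a3, Bmpr1b and Aldh1a1 was called in the authors' tables. All 7 measured genes of optic stalk and ciliary margin, a list that also holds Vax2, were above the heterozygote, with a median of 0.53. Gja1, a gap junction gene, was at 6.44, 7.93 and 15.2 RPKM, with a rise from mutant-labelled to knock-in-labelled retinas (q = 0.0104 in the authors' deposited table).

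Leaving out predicted and small RNA genes and genes that stay under 5 RPKM in both groups, the 4 lowest ratios were those of Fosb, Egr1, Fos and Egr2. These are immediate early genes, which cells switch on within minutes of stimulation or stress. Of 21 genes of this list with heat shock genes, 18 were below the heterozygote and 11 at least 2-fold, with a median log2 ratio of -1.01. Fosb was at 13.2 RPKM in heterozygote, 15.04 RPKM in mutant-labelled and 0.429 RPKM in knock-in-labelled retinas, 30.7-fold below the heterozygote. Egr1 was at 27.8, 32.4 and 1.05 RPKM and Fos at 13.7, 32.4 and 0.547 RPKM. By the most abundant transcript Fos was 15.9-fold below the heterozygote, and by the sum 25.03-fold. Jun was at 33.7, 26.8 and 12.3 RPKM. These 4 fell from mutant-labelled to knock-in-labelled retinas (q = 0.0104 for each in the authors' deposited table), and none passed the test between heterozygote and mutant-labelled retinas. The inducible heat shock gene Hspa1a was at 7.14, 3.81 and 0.851 RPKM and its neighbour Hspa1b at 5.33, 3.85 and 0.923 RPKM. The sequences of these 2 are nearly identical, so the split of reads between them is uncertain. Heat shock genes of high basal level were not lower, with Hspa8 at 2137 and 2468 RPKM and Hsp90aa1 at 1138 and 1402 RPKM in heterozygote and knock-in-labelled retinas. In all, 10 of the 21 fell in the authors' comparison with the mutant, where 0.634% of genes did.

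Genes of tissues next to the retina were higher in the knock-in-labelled group. All 7 measured pigment epithelium genes were above the heterozygote and 6 of them at least 2-fold, and their summed level was 21.3 RPKM in heterozygote, 26.1 RPKM in mutant-labelled and 107 RPKM in knock-in-labelled retinas. Dct, an enzyme of melanin synthesis, was at 1.67, 2.44 and 21.3 RPKM, 12.7-fold above the heterozygote. Pmel, a melanosome matrix protein, was at 3.30, 5.83 and 32.2 RPKM, Gpnmb at 1.56, 2.20 and 11.3 RPKM and Trpm1 at 3.64, 5.25 and 20.5 RPKM. Each of these 4 rose from mutant-labelled to knock-in-labelled retinas (q = 0.0104). Another 6 genes of the list have no ratio because only the second table lists them. Among these, chosen after their values were seen, Tyrp1 was at 0.857 and 5.18 RPKM and Mlana at 0.776 and 5.37 RPKM in mutant-labelled and knock-in-labelled retinas.

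Lens and blood genes followed the same direction. Of 12 lens genes 11 were above the heterozygote and 4 at least 2-fold, with a summed level of 94.5 RPKM in heterozygote, 67.7 RPKM in mutant-labelled and 189 RPKM in knock-in-labelled retinas. Cryab, a small heat shock crystallin that is also made outside the lens, was at 1.31, 2.63 and 21.1 RPKM, the highest ratio once predicted genes, small RNAs and genes under 5 RPKM are left out. Cryaa, which is nearly restricted to the lens, was at 16.6, 13.4 and 38.9 RPKM, and Crybb3 at 7.35, 4.84 and 33.2 RPKM. The Crybb3 values are sums over 2 transcripts in one table and 4 in the other, and it was not called (q = 0.661 against the mutant). Of the 12, Cryab and Cryaa were the 2 called higher than in mutant-labelled retinas (q = 0.0104 for each), where 1.03% of all genes were. All 5 blood genes were above the heterozygote, 4 of them at least 2-fold, with a sum of 30.8, 34.8 and 130 RPKM. Hbb-y, an embryonic globin of the first red cells, was at 19.7, 27.6 and 96.5 RPKM and Hba-x at 7.42, 5.21 and 25.5 RPKM. Globin genes have close paralogs. The 3 measured genes of periocular mesenchyme were all higher (median 0.84), with Lum at 2.31, 1.25 and 4.14 RPKM. Of surface ectoderm, Krt18 was at 1.54, 2.32 and 8.22 RPKM and Epcam at 5.41, 8.06 and 8.89 RPKM. The endothelial gene Kdr was level, at 16.8 and 16.5 RPKM, and Egfl7 was at 6.45 and 7.94 RPKM, though slightly lower by its most abundant transcript. Cd68, the one macrophage marker measured, was lower, at 11.2, 4.83 and 3.68 RPKM, which is 3.06-fold below the heterozygote by the sum and 1.60-fold by the most abundant transcript. These tissue markers and the immediate early genes moved beside the neuronal genes described above, and their part in the neuronal differences was not tested.

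**Figure D4:**
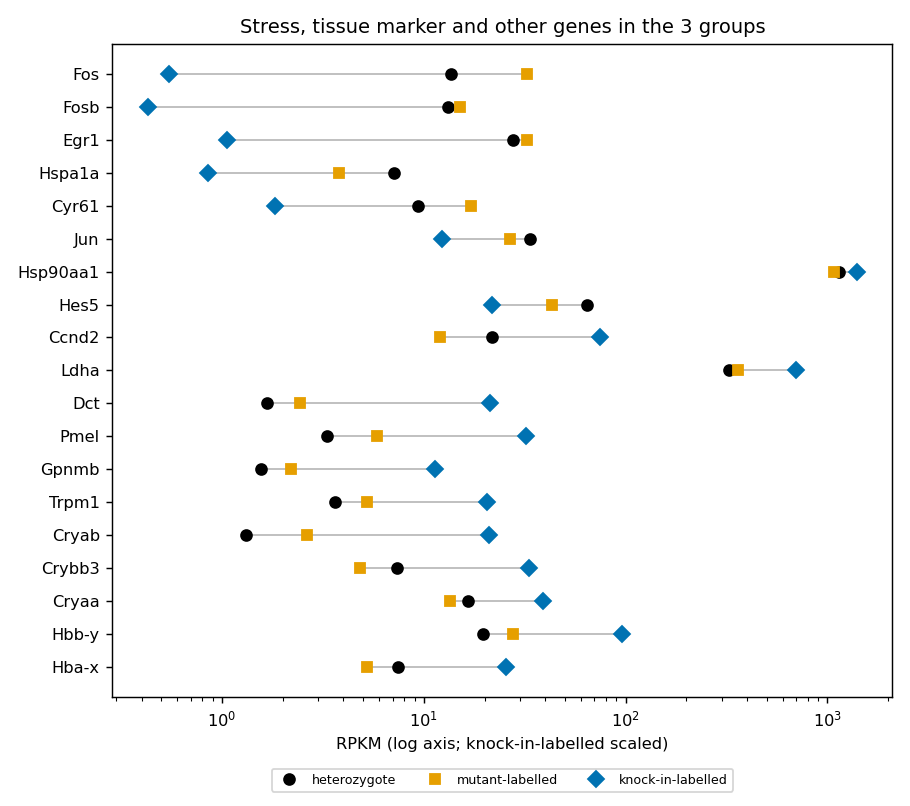
Levels of 19 genes in heterozygote (circles), mutant-labelled (squares) and knock-in-labelled retinas (diamonds), in RPKM on a log axis, 1 pooled value per group and gene. For the immediate early genes and for the pigment, lens and blood genes the heterozygote and mutant-labelled values lie together or within a few fold, and the knock-in-labelled value lies outside both.

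The genes called lower in mutant-labelled than in heterozygote retinas were followed into the knock-in-labelled group. This choice fixes the heterozygote as the higher of these 2 groups, so the counts are a description. Of 119 such genes, 96 had a knock-in-labelled value between the mutant-labelled and the heterozygote one, 20 were below the mutant-labelled value and 3 above the heterozygote. Their median ratio to the heterozygote was 0.677, and 116 were below it, where 45.9% of all genes were. At least 2-fold below it were 24, where 1.94% of all genes were. Within 1.25-fold of it were 23, where 68.8% of all genes were. The 3 above it were Pou4f2, Serpini1 and, named after its value was seen, Nnat, an imprinted gene of developing neurons, at 541, 321 and 821 RPKM. The 4 lowest were Hspa1a, Gad2, Onecut3 and Gnao1, a G protein subunit of neurons at 39.4, 18.7 and 12.6 RPKM.

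Of these 119 genes, 17 were also called higher in knock-in-labelled than in mutant-labelled retinas, where 1.03% of all genes were. The low mutant-labelled values that the first call favours enter this second test too. Within 1.25-fold of the heterozygote were 13 of the 17, where 68.8% of all genes were. Trappc6b, a subunit of a vesicle tethering complex, was at 73.3 RPKM in heterozygote, 46.9 RPKM in mutant-labelled and 72.2 RPKM in knock-in-labelled retinas. Phlda1 was at 64.1, 39.9 and 60.8 RPKM, Cd59a at 25.8, 14.3 and 25.1 RPKM, and Lonrf1 at 5.24, 3.27 and 5.23 RPKM. Myo16, an unconventional myosin of neurons, was at 3.13, 1.43 and 2.81 RPKM. The other 4 of the 17 lay outside that range. Scrt2, a transcriptional repressor made in neuronal precursors, was at 11.4, 4.89 and 7.76 RPKM. Nsg2, an endosomal protein of neurons, was at 16.3, 7.63 and 12.05 RPKM, and Nova2, a neuronal splicing factor, at 12.7, 6.25 and 10.0 RPKM. Pou4f2 was the fourth, above the range.

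Genes called higher in mutant-labelled than in heterozygote retinas numbered 30 (0.245% of genes tested). In the knock-in-labelled group 27 of them were above the heterozygote, where 54.1% of all genes were, with a median ratio of 1.38. Of the 30, 25 were below the mutant-labelled value, and 22 lay between the heterozygote and the mutant-labelled one. The choice favours low heterozygote and high mutant-labelled values, so these counts and the ratio are a description too. Gje1, a connexin-like gene, was at 20.7, 52.4 and 34.7 RPKM and Flrt2, a guidance and adhesion protein, at 28.1, 53.2 and 35.8 RPKM. Tmem60 was at 42.5, 73.7 and 29.9 RPKM, below the heterozygote. All 3 fell between mutant-labelled and knock-in-labelled retinas (q = 0.0413, 0.0413 and 0.0104 in the authors' deposited table). Among the 30, the predicted gene Gm1821 rose in both comparisons, from 9.65 to 22.1 RPKM and to 41.2 RPKM.

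Among the 12 highest and 12 lowest ratios of genes with at least 5 RPKM, predicted and small RNA genes left out, several are sums over transcripts that differ in number between the tables or over near-identical copies. Racgap1, which acts in cytokinesis, had 468 RPKM in heterozygote and 64.7 RPKM in knock-in-labelled retinas, but it had 3 transcripts in one table and 6 in the other. Cwc22, a splicing factor gene in a segment known to vary in copy number between mice, was at 23.5, 29.7 and 192 RPKM, with 3 and 8 transcripts. By the most abundant transcript alone Racgap1 was 11.1-fold lower and Cwc22 3.81-fold higher. The immediate early gene Egr2, with 4 transcripts in each table, was at 19.1 and 0.833 RPKM and was not called (q = 0.783 against the mutant in the authors' deposited table). Hist1h3c and Hist1h3g, histone H3 genes at 1.57 and 9.25 RPKM and at 1.12 and 6.06 RPKM, belong to a family of near-identical copies, and their split of reads is uncertain.

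Others had 1 to 3 transcripts. Clu, which encodes the secreted chaperone clusterin, was at 1.70 RPKM in heterozygote, 3.73 RPKM in mutant-labelled and 11.8 RPKM in knock-in-labelled retinas (q = 0.0104 against the mutant). Cyr61, a matricellular immediate early gene, was at 9.40, 17.1 and 1.83 RPKM, with a fall between the last groups (q = 0.0104). Cxcr4, a chemokine receptor of migrating and growing neurons, was at 8.62, 3.26 and 1.74 RPKM, Tmem163, a zinc transporter, at 7.12, 3.93 and 1.43 RPKM, and Ackr1, an atypical chemokine receptor, at 18.3, 14.5 and 3.91 RPKM. By the most abundant transcript Cxcr4 was 3.16-fold and Tmem163 2.61-fold below the heterozygote, against 4.96-fold and 4.97-fold by the sum. None of these 3 passed the test in either of the authors' tables. Dynlt1b, a dynein light chain gene with close copies, was at 1.11, 1.80 and 6.42 RPKM.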

How the data were processed

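Heterozygote and mutant share the first of the tables that the authors deposited, mutant and knock-in the second. Each gives an RPKM value per assembled transcript and group, with the authors' p-value and q-value (27311 and 26586 transcripts). Per the submitters' processing notes, the tools were Bowtie2, Cufflinks and Cuffdiff and the build was mm10 (versions: not given in the sources used here). Each group value pools 3 samples, so no test of knock-in against heterozygote was possible, and p-values from the authors measure only the spread between samples that the labels do not call separate litters.

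RPKM was summed per symbol with pandas 2.3.3, leaving out transcripts whose symbol had become a date (57 and 55) or was blank (116 and 117). The lowest value of a transcript's higher group was 0.906 RPKM in the first table and 1.04 RPKM in the second. Only one table holds 399 and 141 symbols, respectively, which have no ratio. No pseudocount was used. A call is the authors' q of 0.05 or less for any transcript, and the q quoted is the lowest of a gene. The computation was checked on simulated tables with known ratios, which is no test of the ratios reported. The members and all 23 lists were chosen with earlier results of these data known. Genes named are Neurog2, the 12 highest and 12 lowest ratios with at least 5 RPKM in either group (without predicted genes, Rik clones, pseudogenes, small RNAs and sex-linked genes), the most deviant 4 and most abundant 2 of each list, genes called in both tables, and the nearest and lowest 4 of those called lower in the mutant; other genes in the text are further list members picked with their values known, or are said to be chosen later. Alternatives in the scale, filters and transcript handling were computed. Some genes that this rule or the lists include are not reported here.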

Additional observations from a re-analysis of the deposited data

How the results depend on the processing

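No paired analysis was possible because each group has 1 pooled value and no values per replicate, and for the same reason no replicate could be left out. Counts of genes at least 2-fold higher (165) and lower (216) stayed within 1.5 times under every other mutant-value limit and every other scale. The same held with the most abundant transcript, no minimum, a minimum of 2 RPKM or a pseudocount of 0.5 RPKM. It also held with the tissue, stress and sex-linked lists left out. Single-transcript counts, 119 and 153, were within that range too, but came from 4926 genes. Their shares were thus larger than over all 11126 genes with a ratio. Without predicted genes, pseudogenes and small RNAs, an alternative chosen after seeing the data, the counts were 127 and 153. They moved to 101 and 106 with a minimum of 5 RPKM, to 567 and 702 with a fold of 1.5 and to 67 and 82 with a fold of 3, and the lower count moved to 141 with a pseudocount of 1 RPKM. The median log2 ratio of ganglion cell factors moved to -0.067 for single-transcript genes, to -0.23 by the most abundant transcript and to -0.23 with a pseudocount of 1. That of immediate early and stress genes moved to -0.85 and -0.84 with pseudocounts of 0.5 and 1, and that of pigment epithelium genes to 2.34 and 2.21, and to 2.86 with a minimum of 5 RPKM. The neuronal and progenitor medians and that of genes called lower in the mutant moved by less than 0.14 under each alternative. The patterning median, -0.08, turned to 0.036 with a minimum of 5 RPKM and to 0.054 by the most abundant transcript, and that of bHLH partners and inhibitors, near 0, to 0.030 and 0.032. The median of photoreceptor, horizontal and amacrine factors moved to -1.05 over 3 single-transcript genes and the macrophage value to -0.68 by the most abundant transcript. The endothelial median, 0.14 over 2 genes, changed sign to -0.024 with the 1 single-transcript gene and to -0.044 by the most abundant transcript. Beyond the fewer genes or transcripts that an alternative uses, the cause was not tested. Low values limit many ratios, since 64 of the 165 and 110 of the 216 genes were below 5 RPKM in both groups.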
